A study of Mus musculus with 4 samples.

Results

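The pSmad1/5-only peaks inside genes are 4467 of the 10741 peaks in the pSmad1/5 list. They were chosen by the deposited values: on chromosomes 1 to 19, with a maximum signal of at most 32 (2 times the list median of 16), sharing no base with any peak of the pSmad3 list, and with a midpoint inside a protein-coding or lncRNA gene of RefSeq but more than 1 kb from every gene end. The study mapped where phosphorylated Smad proteins sit on chromatin at E13.5, in molar tooth germs of CD1 mouse embryos that the labels give as wild type. The method was CUT&RUN, in which an antibody carries a micrococcal nuclease to its target and the DNA released around it is sequenced. There were 2 groups, which share stage, tissue and genotype and differ in the antibody: 2 libraries for phosphorylated Smad1/5 (pSmad1/5) and 2 for phosphorylated Smad3 (pSmad3), each digested for 30 min and read as pairs of 100 bp. Each antibody has 1 deposited list for its 2 libraries, so no value has a spread over libraries, no difference could be tested, and read depth is unknown.

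Bone morphogenetic proteins (BMPs) bind receptors that phosphorylate Smad1, Smad5 and Smad9, whereas TGF-beta and activin receptors phosphorylate Smad2 and Smad3. Both sorts of receptor Smad join Smad4, enter the nucleus and bind DNA beside other transcription factors, often at enhancers in introns or between genes. In the tooth germ, BMPs pass back and forth between dental epithelium and the condensing mesenchyme, with Bmp4, Msx1 and Pax9 as well-known parts of that exchange.

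Some of these peaks lay on an alternative transcription start inside their gene, and there RefSeq gives the sequence under the peak. Of the 88 start windows of 300 bases under such peaks, in 74 genes, 12 windows in 9 genes were touched by the region where the call reached its maximum. The 4 windows below are those whose region of maximum was narrow, 7 to 28 bp, and are shown because the maximum can be placed there closely. In the other 8 windows that region spanned 671 bp or more, and at Dgkz 5 of its 16 bases lay in the window. They run 5′ to 3′ on the strand of the gene, in the RefSeq sequence of GRCm38.p6. Capitals mark the core Smad binding motif GTCT, which reads AGAC on the other strand, and its longer form CAGAC, which reads GTCTG there. They also mark the GC-rich motifs described for Smad1/5, of which GGCGCC reads alike on both strands while GGCTCC reads backwards as GGAGCC.
Clybl, chr14:122181444-122181743, + strand: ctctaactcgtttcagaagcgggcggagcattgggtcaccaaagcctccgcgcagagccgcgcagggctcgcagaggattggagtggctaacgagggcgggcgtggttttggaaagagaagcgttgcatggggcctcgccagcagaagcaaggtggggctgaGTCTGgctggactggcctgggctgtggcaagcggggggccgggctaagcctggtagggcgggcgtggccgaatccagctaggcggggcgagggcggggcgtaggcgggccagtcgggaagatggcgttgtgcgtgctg
Dgkz, chr2:91963514-91963813, - strand: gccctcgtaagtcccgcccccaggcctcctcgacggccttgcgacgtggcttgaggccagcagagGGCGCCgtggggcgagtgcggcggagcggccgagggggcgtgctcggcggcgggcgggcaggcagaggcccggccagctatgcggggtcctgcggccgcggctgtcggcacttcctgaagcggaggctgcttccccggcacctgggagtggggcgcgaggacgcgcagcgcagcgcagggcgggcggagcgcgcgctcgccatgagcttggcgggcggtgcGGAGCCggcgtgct
Epb41l1, chr2:156420659-156420958, + strand: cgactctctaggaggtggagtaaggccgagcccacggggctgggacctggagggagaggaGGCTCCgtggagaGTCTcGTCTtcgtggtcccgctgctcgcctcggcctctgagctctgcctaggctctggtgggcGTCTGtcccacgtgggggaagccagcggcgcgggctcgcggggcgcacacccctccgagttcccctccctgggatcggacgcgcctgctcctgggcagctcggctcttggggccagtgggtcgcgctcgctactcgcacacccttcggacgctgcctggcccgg
Tpst1, chr5:130079120-130079419, + strand: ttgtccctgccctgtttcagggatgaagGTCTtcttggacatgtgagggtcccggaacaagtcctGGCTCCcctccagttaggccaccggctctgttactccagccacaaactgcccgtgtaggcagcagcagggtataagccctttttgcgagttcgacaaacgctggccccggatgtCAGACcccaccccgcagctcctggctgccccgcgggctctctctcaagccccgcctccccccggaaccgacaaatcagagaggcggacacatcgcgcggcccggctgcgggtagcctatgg

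The 4 windows ranged from 63.3% to 77.7% G or C, and the other 8 touched windows from 44.0% to 65.0%. The Dgkz window (diacylglycerol kinase zeta, a lipid kinase) is 77.7% G or C with 43 CpG, and it holds GGCGCC and GGAGCC but no GTCT or AGAC. The Epb41l1 window (a membrane skeleton protein) holds GTCT 3 times in 71.3% G or C. Clybl encodes a mitochondrial enzyme and Tpst1 a sulfotransferase of the Golgi, and their windows are 67.3% and 63.3% G or C. These 4 windows were picked after their values were seen, so their base composition does not stand for the set.

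Over all 88 windows the median was 57.2% G or C and 10 CpG, against 51.7% and 6 CpG over all 4584 starts that lie inside genes and more than 1 kb from gene ends. GTCT on either strand was in 79.5% of the 88 windows (exact 95% Clopper-Pearson interval 69.6 to 87.4), in 88.7% of all internal starts and in 88.0% of all 31396 start windows. CAGAC was in 51.1% (40.2 to 61.9), 50.9% and 49.6% of the same sets. GGCGCC was in 11.4% (5.59 to 19.9), 9.42% and 12.1%, and GGCTCC in 36.4% (26.4 to 47.3), 29.3% and 31.2%. The short GC-rich motif GCCG (CGGC on the other strand, not in capitals above) was in 71.6% (61.0 to 80.7), 55.4% and 59.9%. CAGAC holds AGAC, so its windows are also GTCT windows. Of the 5 motifs, the share of windows with GTCT was lower and that with GCCG higher than in both larger sets, and the intervals of the other 3 included them. Under pSmad3-only peaks inside genes the 134 internal starts had medians of 56.3% G or C and 7 CpG. The 28 under shared pSmad1/5 peaks had 56.2% and 8 CpG. GGCGCC was in 14.9% and 21.4% of these windows, GGCTCC in 42.5% and 39.3%, and CAGAC in 58.2% and 53.6%. GTCT was in 88.1% and 92.9%, and GCCG in 61.9% and 57.1%. Only GCCG was thus more frequent in the 88 windows, and for each motif the 95% intervals overlapped. A match is only a match of letters.

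Internal starts were nevertheless a small part of the set. They lay under 76 of the 4467 peaks (1.70%, 1.34 to 2.12), under 3.05% of pSmad3-only peaks inside genes (2.51 to 3.68) and under 2.41% of pSmad1/5 peaks inside genes that share bases with a pSmad3 peak (1.5 to 3.66). The pSmad3-only peaks were wider, with a median of 4441.5 bp against 2316 bp for the set. The peaks of the set covered 0.919% of the gene sequence that the rule admits and 1.92% of the internal starts (1.54 to 2.36). The pSmad3-only peaks covered 1.28% and 2.92%, and the shared pSmad1/5 peaks 0.212% and 0.611%. In all 3 sets the share of starts was thus above the share of sequence.

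A second kind of feature with a sequence was the microRNA hairpin. Under 23 of the peaks lay 29 hairpins, and 25 of the 580 hairpins inside genes and off gene ends had their midpoint under one (4.31%, 2.81 to 6.30). For pSmad3-only peaks, which covered 1.28% of that sequence, the count was 15 (2.59%, 1.45 to 4.23). One peak, chr4:156052613-156056625 in the lncRNA gene Gm13648, spanned Mir200b, Mir200a and Mir429. This cluster of the miR-200 family is known for keeping epithelial cells epithelial by repressing Zeb1 and Zeb2. The mature 3p forms are shown because the hairpins sit together under 1 peak, and capitals mark the seed, bases 2 to 8, which pairs with target RNAs.
miR-200b-3p: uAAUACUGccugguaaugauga
miR-429-3p: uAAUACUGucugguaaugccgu
miR-200a-3p: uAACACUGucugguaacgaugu

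The first and second of these share the seed AAUACUG, and miR-200a-3p has AACACUG. The peak over Mir200b, Mir200a and Mir429 had a total signal of 40479, at percentile 18.7 of the pSmad1/5 list, and a maximum of 16. The nearest pSmad3 peak to this Gm13648 peak was 23.5 kb away. Its region of maximum lay outside it, so the deposited signal is that of its call and not of these hairpins. In Rtl1, a gene of the imprinted Dlk1-Dio3 region, 1 peak spanned Mir136, Mir3071 and Mir432 (total 68849, percentile 62.6), and Dlk1 in the same region held a peak of total 75690. Mir199b lay under a peak of Dnm1 (total 59058), which encodes dynamin. These microRNA genes were named after their positions were seen.

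Among the BMP ligands, receptors and receptor Smads, 3 of 29 genes held a peak (10.3%, exact interval 2.19 to 27.4). Over all 20560 protein-coding genes the share was 12.6%, over 12324 lncRNA genes it was 4.68%, and protein-coding genes of the same length classes as the list gave 17.2%. The 3 genes were Bmp7 and Bmp1, listed as ligands, and the receptor gene Eng. The members of the list that carry the signal inward, Bmpr1a, Bmpr2, Acvr1, Smad1, Smad4 and Smad9, held none, nor did Bmp2 and Bmp4. A pSmad3-only peak was in 5 of the 29 genes (17.2%, 5.85 to 35.8): in Bmp6 and Bmpr1b, and also in all 3 hosts, with 2 such peaks each. Smad5 held a peak shared by both lists.

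Bmp7, a BMP made in the dental epithelium and elsewhere, held 4 peaks from 3 calls in its 72.3 kb. Their totals along the chromosome were 61500, 132467, 132467 and 35903, the middle pair being pieces of 1 call. The largest of them, chr2:172910814-172919026, was 8213 bp wide and shared bases with its region of maximum. The Bmp7 peaks were 0.850 to 20.8 kb from the nearest pSmad3 peak. Bmp1, a protease that trims procollagens and the BMP antagonist Chrd, held 1 peak of total 204173, at percentile 91.9 of the list. Eng (endoglin, a co-receptor of endothelial cells) held 2 pieces of 1 call, 0.208 and 0.591 kb from a pSmad3 peak.

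Of 22 BMP antagonists and modulators, 3 held a peak (13.6%, 2.91 to 34.9, length background 14.6%): Smad6, Nbl1 and Fstl1. Smad6, an inhibitory Smad that BMP signalling itself induces, held 1 peak at chr9:63971032-63974172, 49.5 kb into a gene of 69.0 kb. This Smad6 peak had a total of 87999 and a maximum of 18, shared bases with its region of maximum and lay 45.7 kb from any pSmad3 peak. A pSmad3 peak covered the start of Smad6. Nog, Chrd, Grem1 and Bambi held no peak inside.

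Of 20 genes known as BMP targets, 4 held a peak (20%, 5.73 to 43.7, length background 8.13%, pSmad3-only 1 of 20). Besides Smad6 these were Tbx2, a T-box repressor, with a total of 66146, and Runx2 and Atoh8 with totals of 36912 and 36085. The Runx2 and Atoh8 values are close to the lowest total among the peaks, 35635. More than 5 kb from every gene end, 2 of the 4 targets held a peak. Runx2 is the master regulator of bone cells and also acts in dental mesenchyme. Its peak lay 254 kb into a gene of 319 kb. The short targets Id1, Id2, Id3 and Msx1, of 1.16 to 4.10 kb, leave little sequence more than 1 kb from both ends and held none. Of the 13 genes looked at in any case for their part in tooth development or BMP signalling, Smad6, Runx2, Gli2 and Shh held a peak. Of those without one, Id1, Msx1, Msx2 and Bmp4 are shorter than 10 kb, while Lef1 with 114 kb and Gli3 with 266 kb are long.

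Genes of the TGF-beta and activin pathway held a pSmad1/5-only peak in 8 of 34 cases (23.5%, 10.7 to 41.2, length background 16.9%), and a pSmad3-only peak in 4 of 34 (11.8%, 3.30 to 27.5). Over all protein-coding genes, 11% held a pSmad3-only peak. The type II receptor gene Tgfbr2 held 3 peaks from 3 calls, 5.03, 46.5 and 64.0 kb from its start, with totals of 46594, 35662 and 78309. The nearest pSmad3 peak to any of these Tgfbr2 peaks was 451 kb away. The ligand gene Tgfb3 held 2 peaks, with totals of 89712 and 51612, 0.174 and 19.9 kb from a pSmad3 peak. Smad3 itself, whose product the other antibody detects, held 2 pieces of 1 call 89.5 and 94.6 kb into its 111 kb, with pSmad3 peaks at its start and 2.71 kb from the nearer piece.

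Most of the other hosts on that list encode matrix proteins of the latent TGF-beta binding protein and fibrillin families, not all of which bind latent TGF-beta. Ltbp2 held 4 peaks from 4 calls between 23.5 and 81.4 kb from its start, with totals of 98150, 49379, 38674 and 104724. The call with the total of 104724 had a further piece near the end of Ltbp2, which overlapped a pSmad3 peak. Ltbp1, Ltbp4, Fbn1 and Tgfbr3 held 1 peak each, with totals of 46351, 39920, 37094 and 39859, all at percentile 34.9 or lower. Of 22 TGF-beta target genes 2 held a pSmad1/5-only peak (9.09%, 1.12 to 29.2, length background 10.8%). A pSmad3-only peak was in 7 of the 22 (31.8%, 13.9 to 54.9, length background 9.79%). The 2 with a pSmad1/5-only peak were Ltbp2 and Pmepa1. Pmepa1 encodes a feedback inhibitor of TGF-beta signalling, and its higher peak had a total of 143924. Ccn2 and Ccn1 held neither kind.

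The Smad cofactor gene with the most peaks was Zfp423. It encodes a zinc finger protein that joins Smad1 and Smad4 on BMP response elements. In 300 kb it held 10 peaks from 10 separate calls, and only Camta1, with 13 peaks in 802 kb, held more. From the start of Zfp423 on, the totals were 108465, 38056, 54362, 39435, 48665, 91183, 161257, 142887, 39374 and 126590. They ran from percentile 10.5 to 89.1 of the list, so high and low calls were mixed along the gene. The maxima of the Zfp423 peaks were between 12 and 20, and the nearest pSmad3 peak was 1.72 to 70.2 kb away. No pSmad1/5 peak in Zfp423 overlapped a pSmad3 peak, although 4 pSmad3 peaks from 3 calls lay in the gene.

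**Figure D1:**
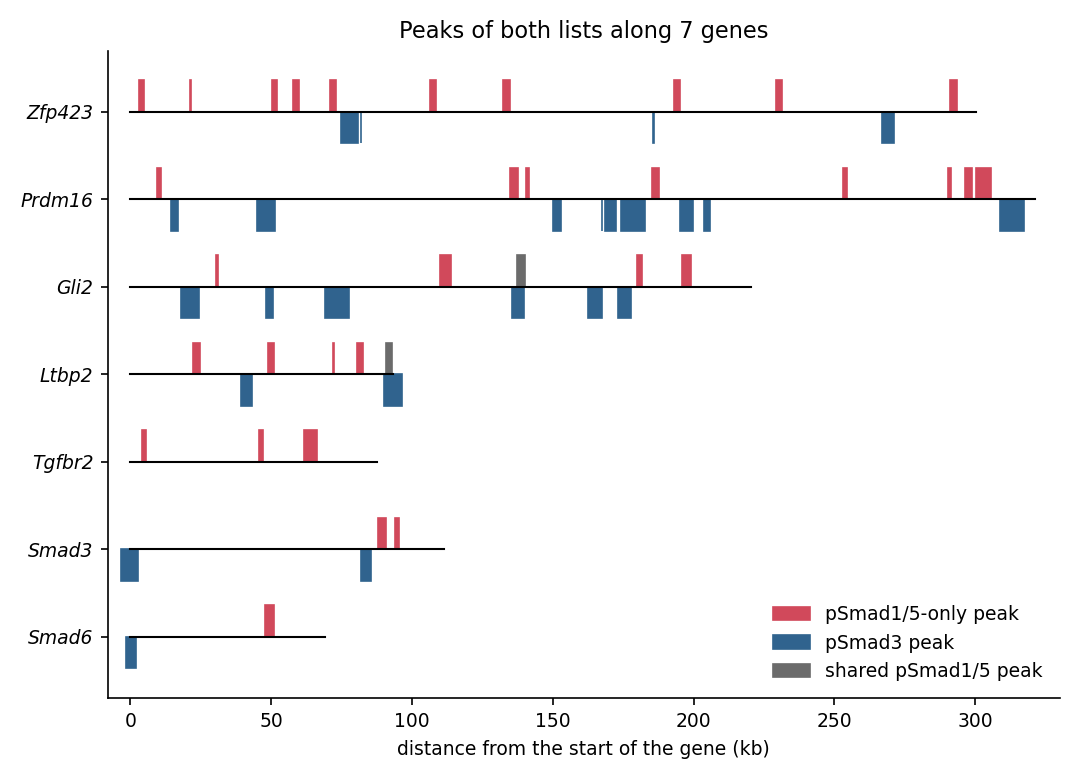
Peaks of both lists along Zfp423, Prdm16, Gli2, Ltbp2, Tgfbr2, Smad3 and Smad6, with distance from the start of the gene in kb on the x axis. Boxes above each line are pSmad1/5 peaks (red without, grey with an overlapping pSmad3 peak) and blue boxes below are pSmad3 peaks, each drawn to its width. Zfp423 carries 10 red boxes along its length, and Tgfbr2 carries 3 and no blue box.

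Of the 35 Smad cofactors and chromatin regulators 12 held a peak (34.3%, 19.1 to 52.2, length background 24%). A pSmad3-only peak was in 16 of the 35 (45.7%, 28.8 to 63.4, length background 20.9%). Prdm16, a zinc finger repressor that interacts with Ski, had 8 peaks from 6 calls, with totals from 39979 to 112736, and 9 pSmad3-only peaks. Runx1 and Hdac4 had 3 each, with highest totals of 106186 and 69128. Ctbp1, Kmt2d and Arid1b reached 110732, 150019 and 85249, while Ctbp2, Hdac7 and Mecom stayed between 37177 and 45819. Ep300 and Crebbp, the acetyltransferases that Smads recruit, and Ncor1 and Sin3a held no pSmad1/5-only peak.

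Genes of the tissue layers differed in count, but the lists are short. Of 41 dental mesenchyme genes 3 held a peak (7.32%, 1.54 to 19.9, length background 12.7%), and of 35 dental epithelium genes 7 did (20%, 8.44 to 36.9, length background 10.6%). In the mesenchyme list these were Gli2, Prrx2 and Runx2, and placing each peak by its region of maximum gave 6 genes in place of 3. With more than 5 kb from every gene end required, 2 of the epithelial genes, which are often short, held a peak. Gli2, a transcription factor of Hedgehog signalling, held 4 peaks from 4 calls at 30.8, 112, 181 and 197 kb, with totals of 38223, 45961, 100373 and 53525. Gli2 also held 5 pSmad3-only peaks and 1 pSmad1/5 peak that overlapped a pSmad3 peak. Pax9, Pax3, Lef1 and Bmp4 held none.

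The epithelial hosts were Esrp1, Tbx1, Ovol1, Grhl2, Krt8, Fgf8 and Shh, with 1 peak each, and 6 of the 7 were below percentile 40 by total. Esrp1, a splicing factor of epithelial cells, had the highest total, 78447. The Tbx1 peak had 48121 and the Ovol1 peak 46426. Shh and Fgf8, the signals of the dental epithelium, had totals of 35718 and 36207, at percentiles 0.368 and 2.25, and the Shh peak did not contain its region of maximum. Grhl2 and Krt8 had 37995 and 37544. Peaks do not say in which cells a Smad was bound, and the germs hold both layers.

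Markers of other cell types that the germs could hold gave 6 of 20 endothelial genes (30.0%, 11.9 to 54.3, length background 17.4%; Fli1, Eng, Cdh5, Erg, Flt4 and Vwf). There were 3 of 13 pericyte genes (23.1%, 5.04 to 53.8, length background 14.6%) and 5 of 20 muscle genes (25%, 8.66 to 49.1, length background 13.6%). Neural genes gave 4 of 22 (18.2%, 5.19 to 40.3, length background 17.2%), red cell genes 2 of 13 (15.4%, 1.92 to 45.4, length background 10.2%) and white cell genes 1 of 22 (4.55%, 0.115 to 22.8, length background 11%), Laptm5. Each of these intervals included the length background. In muscle and neural genes the pSmad3-only counts were the same, and white cell genes had 6 pSmad3-only hosts. The part these cells play in any count above was not tested.

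The list with the highest share was the extracellular matrix. Of 40 genes 19 held a peak (47.5%, 31.5 to 63.9), against 24.9% in genes of like length and 12 of 40 for pSmad3-only peaks (30.0%). Hspg2 (perlecan) and Lama5, basement membrane components, had the highest totals, 170797 and 162494. Col5a3, Col23a1, Lamb2 and Fbln2 followed with 123390, 111704, 108245 and 106712. Axon guidance genes had 19 of 46 (41.3%, 27.0 to 56.8, length background 26.9%), led by Ephb2 with 185651. Among peaks above the list's median total alone, 11 matrix and 10 axon guidance genes held one. The intervals of these 2 lists lay above the share of genes of like length, for axon guidance barely (27.0% against 26.9%). The intervals of the other 24 lists plotted included it. The longest length class ran from 109 to 2271 kb, so like length is coarse for long genes. The pSmad3-only shares of both lists were also above their own length backgrounds, with intervals that included these. They were 30.0% against 21.6% for matrix genes and 30.4% (14 of 46) against 23.0% for axon guidance genes.

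**Figure D2:**
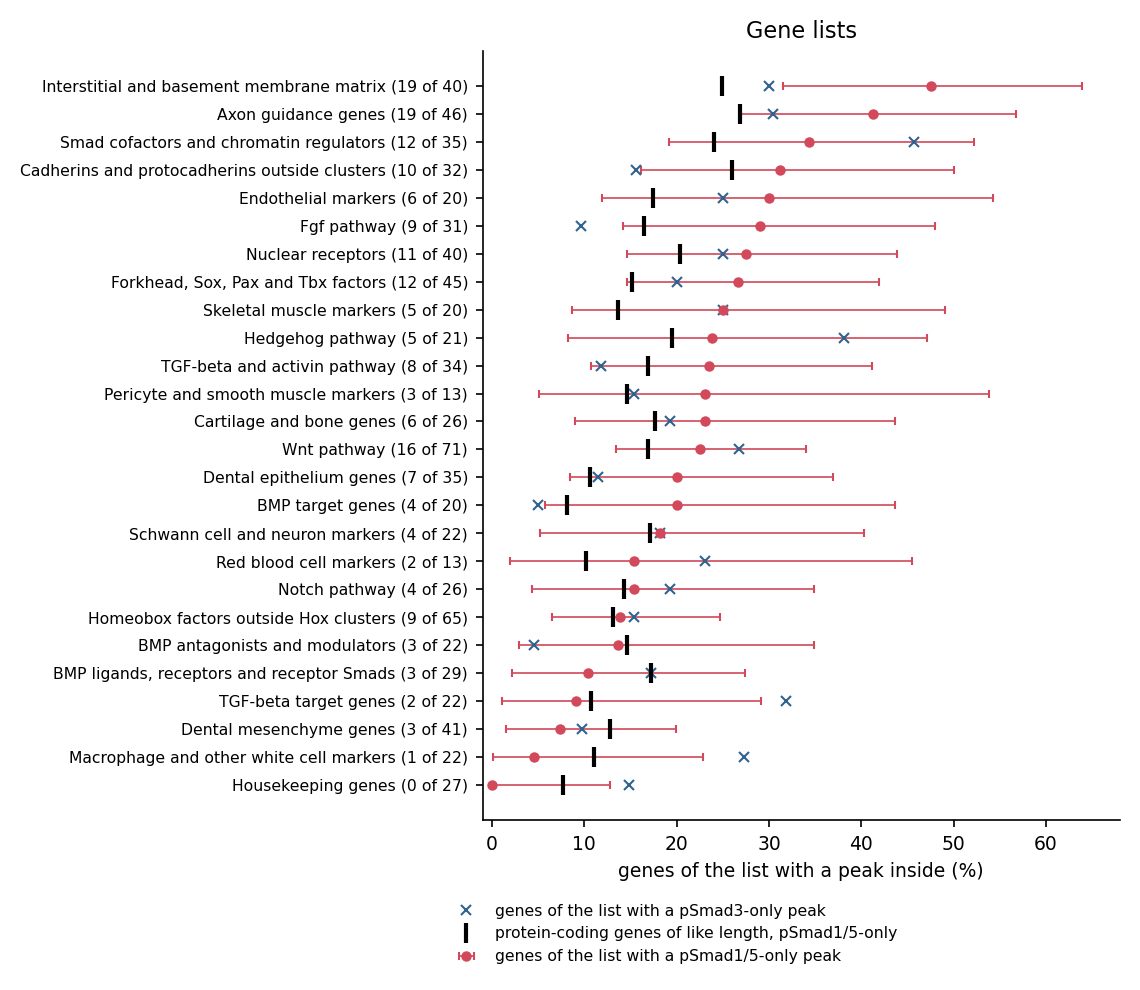
Share of the genes of each of 26 lists that held a peak inside, in %. Red points with bars give pSmad1/5-only peaks with exact 95% intervals, crosses give pSmad3-only peaks, and black ticks give the pSmad1/5-only share of protein-coding genes of the same length classes. Matrix genes are at the top with 47.5% and housekeeping genes at the bottom with 0.

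For the other signalling lists the pSmad1/5-only interval included the length background. The Fgf pathway had 9 of 31 genes (29.0%, 14.2 to 48.0, length background 16.5%, pSmad3-only 3 of 31), with Fgf18, Fgf1 and Fgfr3 at totals of 90532, 82535 and 74775. The Wnt pathway had 16 of 71 (22.5%, length background 16.9%), with the inhibitor Nkd2 at 192198 and the ligand Wnt9b at 173313. The Hedgehog pathway had 5 of 21 (23.8%, 8.22 to 47.2, length background 19.5%), with Gli2, Hhat, Sufu, Smo and Shh, and pSmad3-only peaks were in 8 of 21 (38.1%, length background 17.1%). The Notch pathway had 4 of 26 (15.4%, 4.36 to 34.9, length background 14.2%), with Maml2, Notch1, Jag1 and Notch3.

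Transcription factors of the forkhead, Sox, Pax and Tbx families had 12 of 45 hosts (26.7%, 14.6 to 41.9, length background 15.1%), led by Tbx2 with 66146 and Pax5 with 57062. Homeobox factors outside the Hox clusters had 9 of 65 (13.8%, 6.53 to 24.7, length background 13.1%), with Lmx1b at 88499. Nuclear receptors had 11 of 40 (27.5%, 14.6 to 43.9, length background 20.4%), with Rxra at 152087 and Rara at 101210, which bind retinoids. Cadherins had 10 of 32 (31.3%, 16.1 to 50, length background 26.0%). Cartilage and bone genes had 6 of 26 (23.1%, 8.97 to 43.6, length background 17.6%), with Col2a1 at 146408. None of 27 housekeeping genes held a peak, which allows a share of up to 12.8% (exact upper bound, length background 7.70%). A pSmad3-only peak was in 4 of them (14.8%, 4.19 to 33.7, length background 6.79%).

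The set fell in 3164 genes, 2587 of them protein-coding and 577 lncRNA genes, and 2296 of the genes held 1 peak. It came from 3874 calls, since 1492 of the peaks (33.4%) were pieces of calls deposited in several parts. Peaks from 3 or more calls were in 195 genes. After Camta1 with 13, Atp2b2, Rbfox3 and Zfp423 held 10 each, Itpk1, Grik3 and Cdh23 held 9, and 7 genes held 8: Cdh4, Prkag2, Gse1, Prdm16, Wwox, Atp8a2 and Nav2. Atp2b2 encodes a calcium pump, Rbfox3 a splicing factor and Grik3 a glutamate receptor. Of the protein-coding hosts, 867 (33.5%) also held a pSmad3-only peak, which is 38.4% of the 2260 genes with such a peak. Over all protein-coding genes 11% held one, and 29.7% of those above 109 kb. No pSmad3 peak of any kind touched 1466 of the hosts (56.7%). That share over all genes, or over genes of like length, was not analysed here, so 56.7% cannot be called high or low. The rule also picked peaks that share no base with a pSmad3 peak, so the count leans on the rule. Among these 1466 hosts, 32 held peaks from 3 or more calls, among them Dpf3, Fgd5, Lmx1a and Ntn1 with 5, 5, 4 and 4 calls. Dpf3 is a chromatin reader, Lmx1a a homeobox factor and Ntn1 the guidance cue netrin, and they were named after their counts were seen.

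Hosts were long genes. The median protein-coding host measured 52.8 kb, against 17.6 kb over all protein-coding genes. Split into 10 classes by length, the share of genes with a peak rose from 1.17% (0.749 to 1.73) at 1.73 to 4.42 kb to 35.4% (33.3 to 37.5) above 109 kb. Per Mb of sequence that the rule admits, the order was the opposite: 11.1 and 13.6 peaks in the next classes after the shortest and 2.86 in the longest. The shortest genes, up to 1.73 kb, have no base more than 1 kb from both ends.

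**Figure D3:**
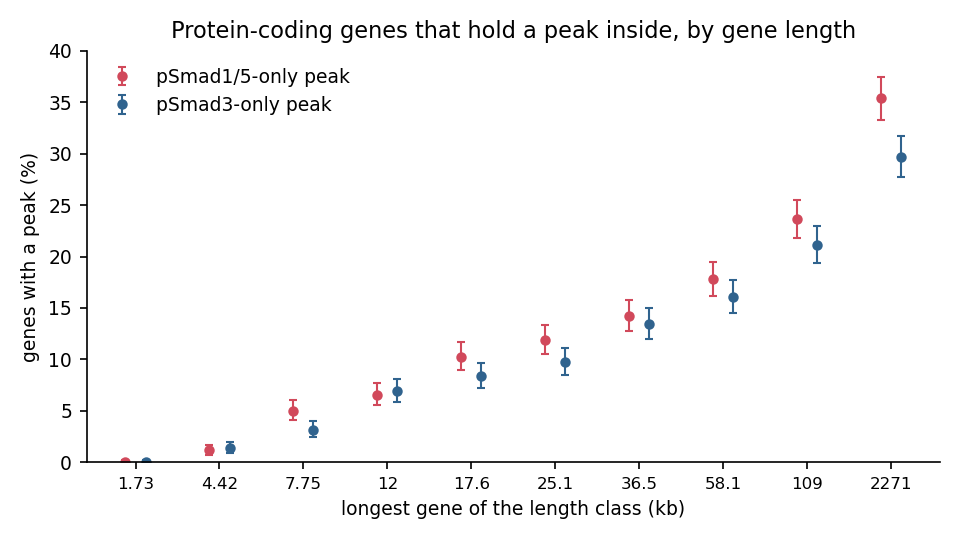
Share of protein-coding genes with a pSmad1/5-only (red) or pSmad3-only (blue) peak inside, in %, by length class, each labelled with its longest gene in kb. Bars are exact 95% intervals. The red share climbs from 1.17% in the second class to 35.4% in the longest, and the blue share from 1.36% to 29.7%.

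Along genes of known strand the peaks became denser towards the end. Over 16457 protein-coding genes, the density was 3.36, 3.73, 4.20, 4.50 and 5.21 peaks per Mb in 5 equal parts from start to end. The last part thus had 1.55 times the density of the first (1.38 to 1.75, exact interval from the 2 counts). Over the same 5 parts pSmad3-only peaks went from 2.96 to 3.99 per Mb and shared pSmad1/5 peaks from 0.658 to 1.17. The rise was therefore present in all 3 sets, and whether its slope differs between them was not tested.

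**Figure D4:**
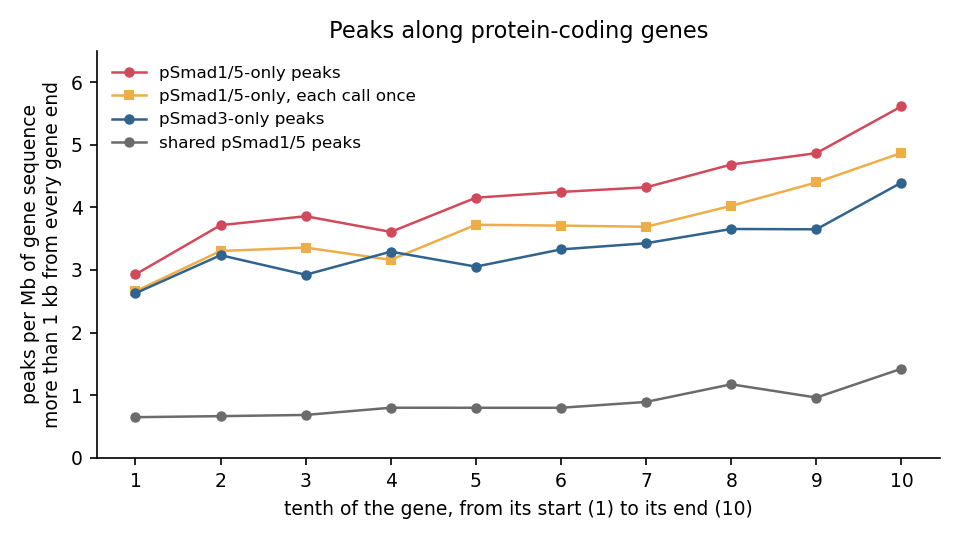
Peaks per Mb of admitted gene sequence in 10 equal parts of protein-coding genes, from the start (1) to the end (10). Lines give pSmad1/5-only peaks, the same with each call counted once, pSmad3-only peaks and shared pSmad1/5 peaks. The pSmad1/5-only line goes from 2.93 at the start to 5.61 at the end.

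Density also differed between chromosomes. It ran from 1.70 peaks per Mb of admitted sequence on chromosome 3 to 6.33 on chromosome 7, around 4.13 over all 19. Chromosomes 11 and 17 followed chromosome 7 with 5.75 and 5.64, and chromosomes 13 and 1 were low with 2.22 and 2.69. The lowest pSmad3-only density was also on chromosome 3, 1.35, and the highest was on chromosome 11, 4.81. Base composition by chromosome was not analysed here.

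**Figure D5:**
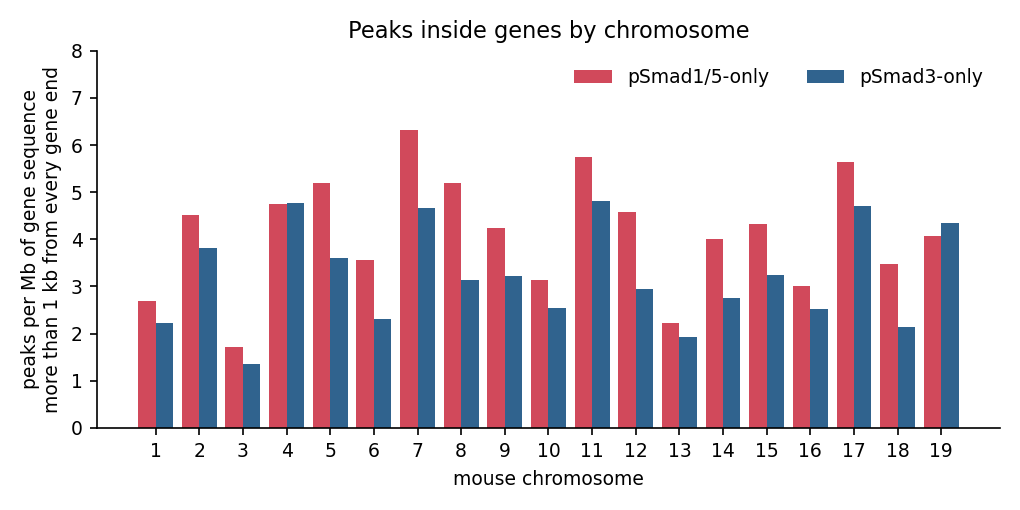
Peaks inside genes per Mb of admitted gene sequence on chromosomes 1 to 19, for pSmad1/5-only (red) and pSmad3-only (blue) peaks. Red bars run from 1.70 on chromosome 3 to 6.33 on chromosome 7.

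The peaks themselves were of middling size. Their median width was 2316 bp (quartiles 1776 and 2849, range 1 to 9230). The median total signal was 51292 (quartiles 41593 and 78432), at percentile 44.4 of the list, and the median maximum was 16. Shared pSmad1/5 peaks inside genes had a median width of 2500 bp and a median total of 70375, and pSmad1/5-only peaks between genes had 2333 bp and 48357. Signals are the authors' values for each call and were compared within the pSmad1/5 list alone. The region of maximum shared bases with the peak in 32.5% (31.2 to 33.9), against 36.1% of shared peaks and 36.7% of pSmad1/5-only peaks between genes. It could also run past the ends of the peak.

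The median peak lay 10.2 kb from the nearest gene end (quartiles 3.83 and 25.1 kb) and 34.2 kb from the nearest pSmad3 peak (quartiles 10.4 and 102 kb). A pSmad3 peak was within 5 kb of 14.6% of the set (13.6 to 15.7) and within 50 kb of 59.2% (57.8 to 60.7). The label holds in that none shares a base with a pSmad3 peak, but pSmad3 signal below the calling level was not analysed here. To the nearest member of another call the median distance was 67.0 kb, and 5.87% were within 10 kb of one.

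With each call taken once, the 15 highest totals ran from 555850 down to 244877. Of these 15 calls 14 were deposited in several parts. They were led by a call in the overlapping lncRNA genes Gm36798 and Gm36684, then Zfp936, Ccdc192, Pdia5, Dynlt1c and Uqcrc1. Zfpm1, a cofactor of GATA factors, had 306615. Of the 10 peaks with the highest maxima, 5 were in genes known only by a Gm number. The other hosts were Pfdn4 (which shares its peak with 1 of those 5), Rapgef5, Hes3, Laptm5 and Mink1.

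At the limit of the rule on the maximum, the last peaks inside were those of Pfdn4 and Rapgef5 at 32 and Hes3 at 31, and the first outside were 2 of Ccdc34 and 1 of Gm47990 at 33. In all, 84 peaks that met every other condition were over the limit. At the limit of 1 kb from a gene end, peaks of Gm32492, Cntn2 and Ephb2 were inside at 1001, 1001 and 1003 bp, and peaks of Ccbe1, Mrto4 and Knstrn were outside at 995, 995 and 994 bp. At the limit on overlap, the closest peaks kept were 4, 8 and 24 bp from a pSmad3 peak (Smok2a, Ppa2 and Txndc5), and the smallest overlaps left out were 4, 8 and 11 bp (Pcnx2, Gm13791 and Nek6).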

How the data were processed

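CUT&RUN libraries of E13.5 molar tooth germs were processed by the authors with Bowtie2, SAMtools, SEACR, bedtools and deepTools on mm10, per the submitters' processing notes. Versions, settings, any control library and the way the calls of both libraries were joined were not given in the sources used here. Each antibody's deposited file gives the position of each peak with the total coverage signal of its call in the authors' scaling, and its maximum, used here as a score. These values may come from the call of 1 of the libraries. The authors' deposited signal and score were used only within a list. Lines with the same total, maximum and region of maximum were taken as pieces of 1 call. The pSmad3-only peaks used for comparison met the same rule with a maximum of at most 26.

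Genes came from the RefSeq table of GRCm38.p6 (20560 protein-coding and 12324 lncRNA genes on chromosomes 1 to 19, without those in the first 3 Mb), which has no exons, so exon and intron were not told apart. Strand and start windows came from the RefSeq promoter table, where 16457 of the protein-coding genes had 1 strand. A gene holds a peak if the peak's midpoint is inside it and more than 1 kb from every gene end. The length background of a list is the mean share over its genes of their length class, out of 10 classes. Intervals are exact 95% Clopper-Pearson. They cover counting error only and take pieces of a call as separate. Start windows and hairpins that lie together under 1 peak were also taken as separate, so those intervals may be too narrow. Positions are 1-based.

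The members and the 27 gene lists were chosen with earlier results of these data known, and many genes are in several lists. Genes named were those of the BMP, TGF-beta, target and cofactor lists with a peak, up to 6 per other list by total signal, hosts of the 15 highest totals and 10 highest maxima, the 10 genes with most peaks, up to 4 genes without a peak per list, 13 genes in any case, and those next to a threshold; others are said to be chosen after their values were seen. 1 list and some genes are not reported here. A few more genes without a peak were named for their role in the pathway. No test was possible with 1 list per antibody. The placing rule was checked on made-up rows. Python 3.11.15, numpy 2.4.6, pandas 2.3.3, SciPy 1.17.1 and matplotlib 3.10.9 were used. Alternatives changed the limit on the maximum, the overlap, the distance, the genes and the counting of calls.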

Additional observations from a re-analysis of the deposited data

How the results depend on the processing

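Of 402 values recomputed under 12 alternatives, 356 stayed within 1.5 times (counts) or within their interval (shares, medians and the ratio of the last to the first part of the gene); the alternative of calls deposited as 1 piece, and all those of the ratio, were chosen after seeing the data. With only peaks above the list's median total signal there were 1961 members in 1461 genes, 5.96% of protein-coding genes, a median end distance of 8.99 kb, a median width of 2404 bp and 103 listed genes in place of 188. Above that median the TGF-beta pathway had 4 genes, BMP targets 2, dental mesenchyme 1, dental epithelium 1 and matrix 11. With calls deposited as 1 piece there were 2975 members, in 9.95% of protein-coding genes, at a median of 10.8 kb, and 1 BMP ligand or receptor gene. Over 5 kb from gene ends there were 2046 host genes, 8.67% of protein-coding genes, a median distance of 17.1 kb, 2 BMP targets and 2 dental epithelium genes. Without any pSmad3 peak within 5 kb the share was 11.1%, with 1 BMP ligand or receptor gene. With protein-coding genes alone the median distance was 14.8 kb, and with the midpoint of the region of maximum 6 dental mesenchyme genes held a peak. The last of 5 parts of the gene stayed denser than the first under all 11 alternatives run on it, at 1.46 to 1.74 times. Of 240 values for the other gene lists 218 stayed within 1.5 times. Most of the rest fell above the median total, where axon guidance had 10 genes, Wnt 9, Fgf 5, nuclear receptors 5, Hedgehog 3, forkhead, Sox, Pax and Tbx 3, homeobox 3, Notch 2, and cartilage and bone, muscle and red cell genes 1 each. Over 5 kb from gene ends Wnt had 10 and Hedgehog 2, with calls of 1 piece Wnt had 10, Hedgehog 3, pericyte 1 and white cell 0, and white cell genes were 0 to 2 throughout. Motif shares in other windows were not run, since no genome sequence was used here. No library could be left out and no paired analysis was possible because each antibody has 1 list. Depth per library is unknown, so peaks missing from a list may be below its calling level.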

Other observations

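Families grouped by the start of the gene symbol, chosen after the data were seen, showed values that the lists above do not hold. Of 25 calcium channel genes (Cacn) 13 held a pSmad1/5-only peak inside (52.0%, exact 95% interval 31.3 to 72.2), against 26.6% of genes of like length, and 13 held a pSmad3-only peak. Of 25 myosin genes (Myo) 12 held each kind (48.0%, 27.8 to 68.7, length background 26.7%). Potassium channel genes (Kcn) gave 26 of 92 (28.3%, 19.4 to 38.6, length background 18%) and 23 pSmad3-only hosts, and receptor phosphatases (Ptpr) gave 9 of 21 (42.9%, 21.8 to 66.0, length background 29.5%) and 5 pSmad3-only hosts. At the other end, 1103 olfactory receptor genes held none (upper bound 0.334%, length background 0.649%), vomeronasal receptor genes 1 of 349 (0.287%, length background 4.73%) and Zfp zinc finger genes 36 of 388 (9.28%, 6.58 to 12.6, length background 12.4%). The pSmad3-only hosts of these families numbered 0, 1 and 26. The median olfactory and vomeronasal receptor genes, of 0.951 and 0.96 kb, have no base more than 1 kb from both ends. The rule itself keeps genes that short from holding a peak. Glutamate receptor genes (Gri and Grm), which are long, gave 8 of 27 (29.6%) beside a length background of 27.0%. These are counts of genes, with no test.

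On the X chromosome, which the rule leaves out, 4 of 93 pSmad1/5 peaks met its other conditions.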
